A study of Mus musculus with 9 samples.

Results

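The genes described are the collagens of laser-captured mouse prostate lesions, taken as every gene whose symbol has the form of Col, a type number, the letter a and a chain number. Of the 22180 genes that carried exactly 1 symbol on the array, 44 met this rule: 11 encode chains of fibrillar collagens, 6 encode the chains of basement membrane collagen (type IV) and 27 encode the remaining types. The prostates came from 6 male mice of mixed strain background, 12 months old, and were fixed in formalin and embedded in paraffin before capture. The control HG-PIN group holds 3 mice with PbCre and without the T-3Mb-Erg allele, and high-grade prostatic intraepithelial neoplasia (HG-PIN) is a precursor lesion that grows inside the gland. The T-3Mb-Erg HG-PIN group holds the same kind of lesion from 3 mice with PbCre and T-3Mb-Erg/+, and the T-3Mb-Erg tumour group holds poorly differentiated adenocarcinomas of those same 3 mice. All mice thus shared PbCre, a Cre recombinase driven by the probasin promoter in prostate epithelium, and no group is normal prostate. T-3Mb-Erg is an engineered allele, present on 1 chromosome, that joins Tmprss2 to Erg with loss of the interval between them. The study text names epithelial cells as the target of capture in HG-PIN, and it names the adenocarcinomas as a whole for the tumours. Each group has 3 arrays from separate mice, with 1 array per capture.

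Collagen chains wind around each other into a stiff helix and are the main structural proteins of the extracellular matrix. Fibrillar collagens (types I, II, III, V, XI, XXIV and XXVII) assemble into cables that give stroma its tensile strength, type IV forms the sheet of the basement membrane beneath glandular epithelium, and the remaining types link, anchor or border these structures. In the prostate, fibroblasts of the stroma are the usual source of fibrillar collagen, whereas epithelial, endothelial and smooth muscle cells also deposit basement membrane. In bulk samples such as these, fewer cells of a type and less RNA per cell cannot be told apart.

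Promoter sequences are shown for 5 members on which the comparison of tumours with HG-PIN turned: Col1a2, Col3a1, Col6a1 and Col5a1, the 4 with a window among the 7 members with the largest positive differences, and Col10a1, the member with the largest negative one. RefSeq start sites on build GRCm38.p6 were matched by symbol for 35 of the 44 collagen genes, with 38 promoter windows. Each line gives the 120 bases before the start, 5′ to 3′ on the gene's strand, with capitals marking a match to the CCAAT box, to the TATA box letters TATAAA, or to the core GGGCGG of the GC box.
Col1a2, chr6:4505498-4505617, plus strand: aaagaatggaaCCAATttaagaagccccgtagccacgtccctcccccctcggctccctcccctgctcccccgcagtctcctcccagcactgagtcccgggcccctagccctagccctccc
Col3a1, chr1:45311418-45311537, plus strand: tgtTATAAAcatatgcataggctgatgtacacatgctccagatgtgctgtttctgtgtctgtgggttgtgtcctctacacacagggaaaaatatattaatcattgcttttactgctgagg
Col5a1, chr2:27886305-27886424, plus strand: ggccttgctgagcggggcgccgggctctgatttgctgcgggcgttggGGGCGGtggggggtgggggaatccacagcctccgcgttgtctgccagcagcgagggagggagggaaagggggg
Col6a1, chr10:76726045-76726164, minus strand: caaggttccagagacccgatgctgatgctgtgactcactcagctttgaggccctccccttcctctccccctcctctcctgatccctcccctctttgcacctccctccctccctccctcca
Col10a1, chr10:34389861-34389980, plus strand: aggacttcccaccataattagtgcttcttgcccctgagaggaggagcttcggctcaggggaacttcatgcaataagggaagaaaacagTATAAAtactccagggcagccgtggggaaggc

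Counted back from the start, with the base just before it at position -1, the first base of the match lay at -109 for CCAAT in Col1a2 and at -73 for GGGCGG in Col5a1. TATAAA began at -117 in Col3a1 and at -32 in Col10a1. Of the 5 stretches, 4 held 1 match and that of Col6a1 held 0. Over the whole windows of 250 bases before to 50 after the start, searched on both strands and with each motif counted on its own, GGGCGG was found in 60.5% of 38 collagen windows and 35.7% of all 32851 windows. CCAAT was found in 34.2% of collagen windows against 37.4% of all, and TATAAA in 13.2% against 13.6%. A match is a description of letters and names no bound factor.

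The deposited values are array intensities, so a level below is the log2 of an intensity and can be compared between arrays but not between genes. Median intensity lay between 13.6 and 15.4 on the 9 arrays, and the 95th percentile of log2 intensity between 5.61 and 6.26, lowest within its group for control HG-PIN replicate 2, T-3Mb-Erg HG-PIN replicate 3 and T-3Mb-Erg tumour replicate 2. As a gauge of background, the 95th percentile of the mean log2 of 1394 olfactory and vomeronasal receptor genes stood at 4.80. Erg, the gene joined by the engineered allele, had group means of 3.88, 3.96 and 4.52 in control HG-PIN, T-3Mb-Erg HG-PIN and tumours, all below that gauge. Its log2 difference between the HG-PIN groups was 0.08 ± 0.25 (SE; adjusted p = 0.998), so the labels were not checked by its level. The captured epithelium was checked on 14 luminal markers such as Krt8 and Cdh1: 13 had a mean above the gauge in each HG-PIN group, against 5 in tumours.

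Of the 44 collagen genes, 17 had a mean above the gauge in at least 1 group, and 5 in all groups: Col1a1, Col6a1, Col9a2, Col13a1 and Col26a1. Fibrillar members above the gauge numbered 2 of 11 in control HG-PIN and 5 of 11 in each of T-3Mb-Erg HG-PIN and tumours. Basement membrane members numbered 0, 0 and 2 of 6, and the remaining types 6, 4 and 7 of 27. Among fibrillar members, Col5a3 lay just under the gauge in control HG-PIN (4.798 against 4.804), and Col27a1 lay under it in tumours (4.735). A filter that removed the lowest 25% of genes by mean signal (mean log2 below 3.25) left 16635 genes for testing with limma, among them 39 collagens. The 5 not tested were Col6a5, Col9a1, Col11a1, Col19a1 and Col28a1, with means over the 9 arrays between 2.57 and 3.22.

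**Figure D1:**
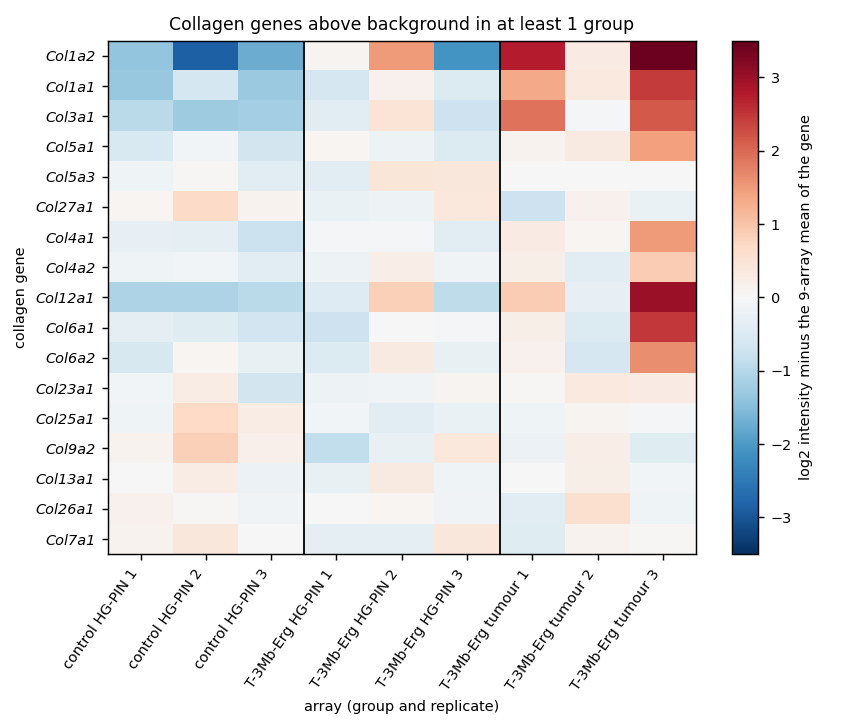
Levels of the 17 collagen genes above the background gauge in at least 1 group, with genes down the side and arrays across; colour gives the log2 intensity minus the gene's mean over the 9 arrays. The darkest cells are Col1a2 and Col12a1 on T-3Mb-Erg tumour replicate 3, where Col1a2 stood at 10.15 and Col12a1 at 7.91, and T-3Mb-Erg tumour replicate 2 is paler than the other tumours for both genes.

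Tumours were first set against HG-PIN of the same mice, which asks how the invasive lesion differs from the precursor. The 7 members with the largest positive differences were chains of type I (Col1a2, Col1a1), type III (Col3a1), type XII (Col12a1), type VI (Col6a1) and type V (Col5a2, Col5a1), which on average stood 5.04- to 1.77-fold higher in tumours, while the type V chain Col5a3 was at -0.13 (log2). No collagen gene passed the threshold, an adjusted p under 0.05 over all genes tested, in either direction; of all genes tested, 0.0661% were called higher and 0.216% lower. With p under 0.05 before adjustment, 6 of 39 collagens were higher (Col1a1, Col1a2, Col3a1, Col5a1, Col5a2 and Col4a1), against 3.67% of all genes, and 1 was lower (Col10a1), against 3.98%. In 4 members all 3 tumour arrays lay above all 3 HG-PIN arrays (Col1a1, Col5a1, Col5a2 and Col4a1), against 4.97% of all genes, and in 2 they lay below (Col10a1 and Col18a1), against 6.43%. The median log2 difference was 0.53 over the 10 fibrillar members tested, 0.14 over the 6 of basement membrane and 0.03 over the 23 remaining, beside -0.01 over all genes. The fibrillar median was 0.24 with no signal filter, 0.82 with the lowest 50% of genes removed and 0.30 with log2 of value plus 16. In the main fit, 7 of 10 fibrillar, 5 of 6 basement membrane and 12 of 23 remaining members had positive differences. Over all genes the share was 48.9%. The 6 members at an unadjusted p under 0.05 became 2 without T-3Mb-Erg HG-PIN replicate 3 and 2 without T-3Mb-Erg tumour replicate 3. Without T-3Mb-Erg tumour replicate 2, Col3a1 was called (log2 difference 2.16, adjusted p = 0.037), and over all 22 alternatives its adjusted p ranged from 0.0353 to 0.9999. All genes called without that array numbered 85 higher and 25 lower, beside 11 and 36 in the main fit.

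**Figure D2:**
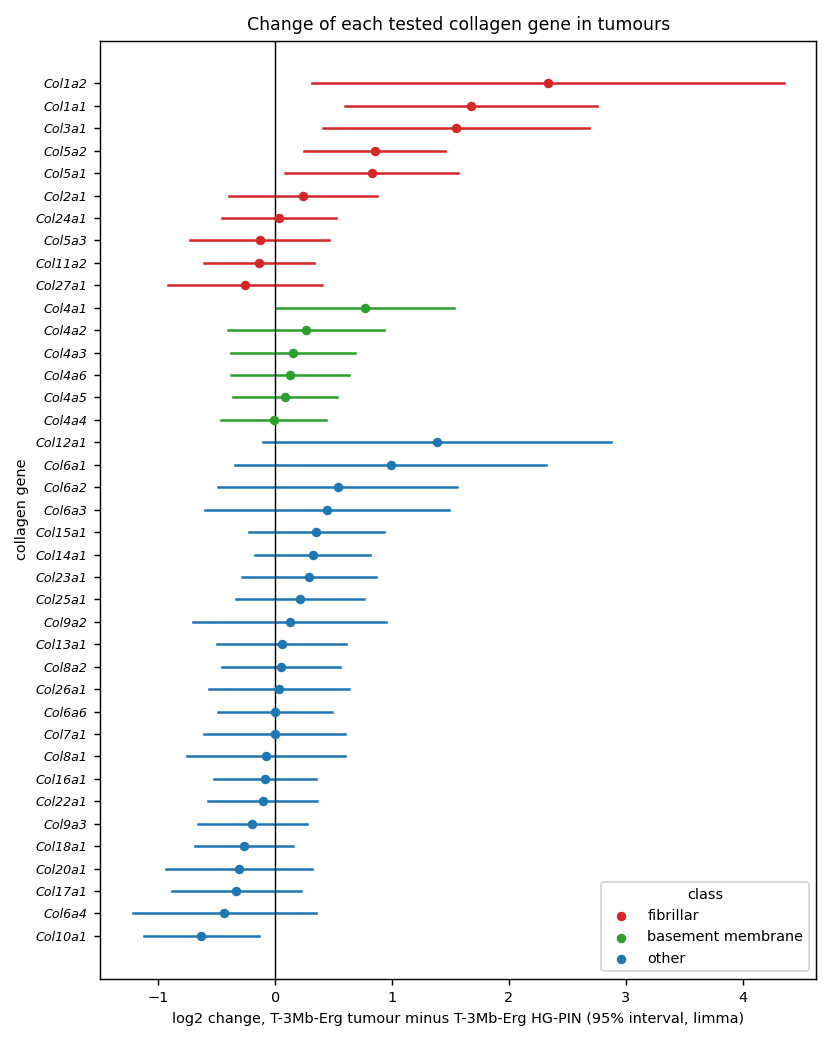
Log2 difference of T-3Mb-Erg tumours minus T-3Mb-Erg HG-PIN for the 39 collagen genes tested, ordered within class; points are differences of group means (n = 3 each) and bars are 95% intervals from limma before adjustment. Col1a2 at 2.33 and Col1a1 at 1.68 are the farthest to the right, and Col10a1 at -0.63 the farthest to the left.

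Col1a1 encodes the first chain of type I collagen, the main fibre of stroma. Its log2 levels were 4.96, 5.66 and 4.99 in control HG-PIN, 5.70, 6.43 and 5.81 in the T-3Mb-Erg HG-PIN arrays and 7.62, 6.63 and 8.73 in tumours, for replicates 1, 2 and 3. The tumour mean was 7.66 ± 1.05 (SD, n = 3) and the T-3Mb-Erg HG-PIN mean 5.98 ± 0.39, a 3.2-fold difference (log2 1.68 ± 0.49 SE, adjusted p = 0.294). The 3 groups stood in order without overlap, and tumour replicate 2 lay closest to HG-PIN. Without tumour replicate 3 the difference was 1.12.

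Col1a2 encodes the partner chain of type I collagen. It stood at 5.32, 3.85 and 4.97 in control HG-PIN, at 6.79, 8.2 and 4.60 in the T-3Mb-Erg HG-PIN arrays and at 9.45, 7.0 and 10.15 in tumours. The group means were 4.71 ± 0.77, 6.53 ± 1.81 and 8.87 ± 1.66 (SD, n = 3), and tumours exceeded T-3Mb-Erg HG-PIN by 2.33 ± 0.92 on the log2 scale (SE, adjusted p = 0.53). Without T-3Mb-Erg HG-PIN replicate 3 that difference was 1.18, and without T-3Mb-Erg tumour replicate 3 it was 1.41. Tumour replicates 1 and 3 lay above every HG-PIN array, but tumour replicate 2 lay between the HG-PIN arrays of the engineered genotype, whose own values covered most of the scale. A dimmer probe set of Col1a2 gave a smaller tumour difference, 0.87 against 2.33 for the brighter probe set that was used.

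Col3a1, whose type III collagen forms thin fibres together with type I, had levels of 4.79, 4.51 and 4.56 in control HG-PIN, 5.36, 6.21 and 5.03 in the T-3Mb-Erg HG-PIN arrays and 7.65, 5.71 and 7.88 in tumours. Its tumour mean of 7.08 ± 1.19 exceeded the T-3Mb-Erg HG-PIN mean of 5.53 ± 0.61 by 1.55 ± 0.52 (SE), or 2.92-fold (adjusted p = 0.411). As for Col1a2, tumour replicate 2 lay below HG-PIN replicate 2, so these groups overlapped, and every control array was below every other array.

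**Figure D3:**
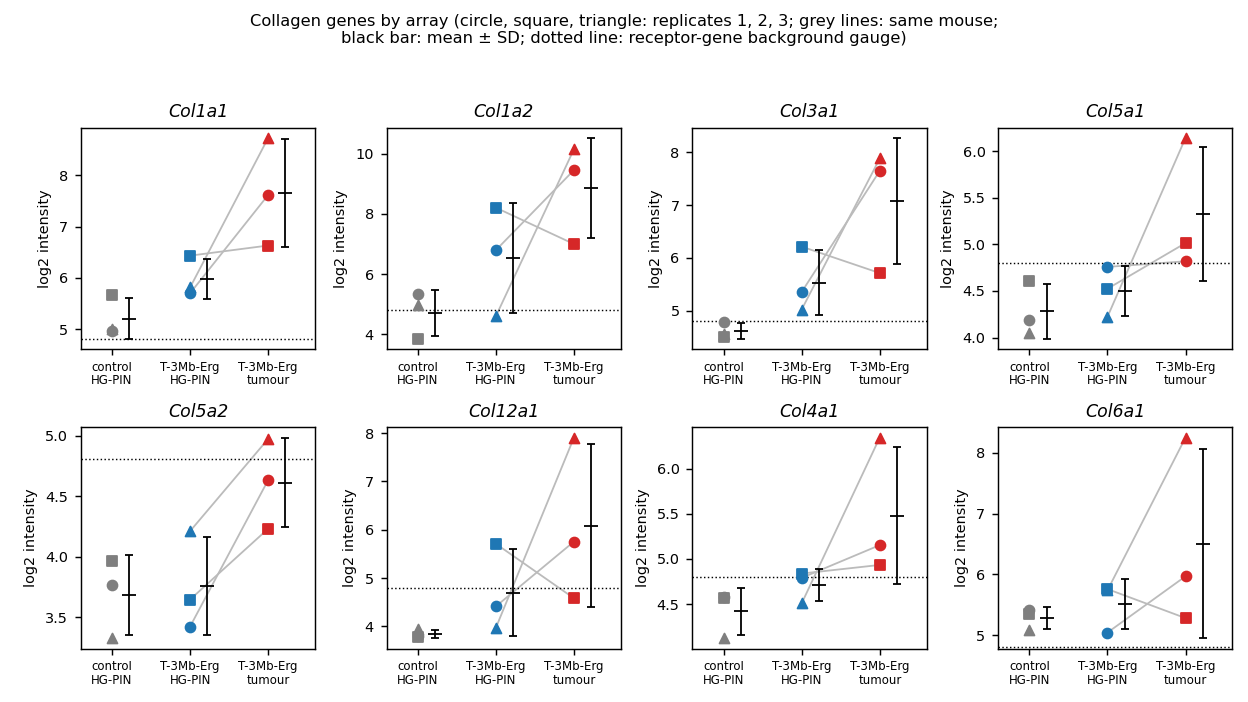
Log2 intensity of 8 collagen genes by group, with a circle, square and triangle for replicates 1, 2 and 3, grey lines between lesions of the same mouse, bars for mean ± SD (n = 3) and a dotted line at the background gauge of 4.80. Tumour replicate 3 is the highest point in every panel, with Col6a1 at 8.25 against 5.97 and 5.28 in the other tumours.

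Type V collagen starts and limits the width of type I fibres. Col5a1 stood at 4.18, 4.61 and 4.05 in control HG-PIN, at 4.76, 4.52 and 4.22 in the T-3Mb-Erg HG-PIN arrays and at 4.82, 5.02 and 6.15 in tumours, a difference from T-3Mb-Erg HG-PIN of 0.82 ± 0.34 (SE, adjusted p = 0.555). All tumours lay above all HG-PIN arrays, though tumour replicate 1 by a narrow margin. Without T-3Mb-Erg tumour replicate 3 the difference was 0.375. Its dimmer probe set gave 0.28, with overlapping values. Col5a2, named after its values were seen because it was among the 6, was below the gauge in every group mean and stood at 3.42, 3.65 and 4.21 in the T-3Mb-Erg HG-PIN arrays and 4.63, 4.23 and 4.97 in tumours (0.85 ± 0.28, adjusted p = 0.378). It was higher in the tumour of each of the 3 mice. The remaining chain, Col5a3, showed no such separation: 4.80, 5.0 and 4.59 in control HG-PIN, 4.57, 5.37 and 5.36 in the T-3Mb-Erg HG-PIN arrays and 4.95, 4.97 and 4.98 in tumours, a difference of -0.13 ± 0.27 with a 95% interval from -0.73 to 0.46.

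Among the fibrillar genes known best from cartilage and other tissues, Col27a1 was above the gauge in both HG-PIN groups. Its levels were 5.08, 5.67 and 5.13 in control HG-PIN, 4.77, 4.84 and 5.37 in the T-3Mb-Erg HG-PIN arrays and 4.29, 5.15 and 4.77 in tumours, and the means of 5.29, 4.99 and 4.74 lay in the opposite order to those of Col1a1. Neither tumour comparison passed for it: -0.26 against T-3Mb-Erg HG-PIN (adjusted p = 0.977) and -0.56 against control HG-PIN (adjusted p = 0.636). Col2a1, Col11a2 and Col24a1, all below the gauge in every group mean, differed by between -0.14 and 0.24 between tumours and T-3Mb-Erg HG-PIN.

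The basement membrane genes divided into a pair that reached the gauge in tumours and 4 that did not. Col4a1 encodes a chain of the type IV network found in nearly all basement membranes, and it stood at 4.58, 4.56 and 4.12 in control HG-PIN, at 4.79, 4.84 and 4.51 in the T-3Mb-Erg HG-PIN arrays and at 5.15, 4.93 and 6.35 in tumours. Tumours exceeded T-3Mb-Erg HG-PIN by 0.77 ± 0.35 (SE), or 1.7-fold (adjusted p = 0.65), with no overlap. Without T-3Mb-Erg tumour replicate 3 that difference was 0.30. Col4a2, its partner chain, stood at 4.44, 4.49 and 4.21 in control HG-PIN, at 4.41, 4.81 and 4.46 in the T-3Mb-Erg HG-PIN arrays and at 4.80, 4.19 and 5.48 in tumours, a difference of 0.26 ± 0.30 (adjusted p = 0.977). Tumour replicate 2 was the lowest array of Col4a2 and tumour replicate 3 the highest. Col4a3, Col4a4, Col4a5 and Col4a6, which build the more specialised networks of kidney and other epithelia, stayed below the gauge in each group mean, and their differences lay between -0.02 and 0.15.

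Type VI collagen forms beaded filaments around cells in stroma. Col6a1 stood at 5.42, 5.35 and 5.08 in control HG-PIN, at 5.04, 5.76 and 5.74 in the T-3Mb-Erg HG-PIN arrays and at 5.97, 5.28 and 8.25 in tumours. The tumour mean of 6.5 ± 1.55 exceeded that of T-3Mb-Erg HG-PIN by 0.99 ± 0.61 (SE, adjusted p = 0.821), and without tumour replicate 3 the difference was 0.15. The other probe set of Col6a1 had a tumour difference of 2.90, with 7.49, 4.54 and 9.74 on the tumour arrays. Col6a2 stood at 4.15, 4.76 and 4.44 in control HG-PIN, at 4.22, 5.02 and 4.43 in the T-3Mb-Erg HG-PIN arrays and at 4.84, 4.10 and 6.33 in tumours (0.53 ± 0.47, adjusted p = 0.936). In both genes tumour replicate 3 stood far above all other arrays and tumour replicate 2 lay within or below the HG-PIN range. Col6a3, Col6a4 and Col6a6 were below the gauge in each group mean, although Col6a3 stood at 6.07 on tumour replicate 3, and Col6a3 and Col6a6 differed by 0.44 and 0.00.

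Col12a1 belongs to the FACIT collagens, which sit on the surface of type I fibres and tie them to their surroundings. It stood at 3.79, 3.78 and 3.94 in control HG-PIN, at 4.42, 5.71 and 3.97 in the T-3Mb-Erg HG-PIN arrays and at 5.76, 4.58 and 7.91 in tumours. Its mean rank over the groups followed Col1a1, with 3.84 ± 0.09, 4.70 ± 0.90 and 6.08 ± 1.69 (SD, n = 3), and the tumour difference from T-3Mb-Erg HG-PIN was 1.38 ± 0.68 (SE, adjusted p = 0.708). Control arrays lay below all others and close together, while HG-PIN and tumour values overlapped. Without T-3Mb-Erg tumour replicate 3 the difference was 0.36. The FACIT gene Col9a2, better known from cartilage, was above the gauge in all groups and stood at 6.12, 6.80 and 6.17 in control HG-PIN, at 5.11, 5.73 and 6.34 in the T-3Mb-Erg HG-PIN arrays and at 5.77, 6.22 and 5.57 in tumours. Its groups overlapped in all 3 comparisons, and its difference between tumours and T-3Mb-Erg HG-PIN was 0.12 ± 0.38. Col9a3, Col14a1, Col16a1 and Col22a1, further FACIT genes, differed by between -0.20 and 0.32 and lay below the gauge in each group mean.

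Transmembrane collagens are anchored in the membrane of the cell that makes them, often an epithelial or nerve cell, rather than laid down as fibres. Col13a1 stood at 4.93, 5.2 and 4.75 in control HG-PIN, at 4.71, 5.27 and 4.81 in the T-3Mb-Erg HG-PIN arrays and at 4.93, 5.16 and 4.85 in tumours, and its 3 group means lay within 4.93 and 4.98. Col23a1 stood at 4.67, 5.04 and 4.14 in control HG-PIN, at 4.61, 4.65 and 4.87 in the T-3Mb-Erg HG-PIN arrays and at 4.81, 5.11 and 5.07 in tumours, a difference of 0.28 ± 0.26 (adjusted p = 0.948). Col25a1 was above the gauge only in the mean of control HG-PIN: 4.52, 5.36 and 4.90 there, 4.57, 4.26 and 4.41 in the T-3Mb-Erg HG-PIN arrays and 4.51, 4.75 and 4.62 in tumours. None of the 3 separated the tumours from HG-PIN. Col17a1, a part of the hemidesmosomes by which basal epithelial cells hold on to the basement membrane, stood at 4.36, 4.74 and 4.66 in control HG-PIN, at 4.95, 4.82 and 4.53 in the T-3Mb-Erg HG-PIN arrays and at 4.17, 4.88 and 4.26 in tumours (-0.33 ± 0.25, adjusted p = 0.906). Tumour replicate 2 was at the HG-PIN level and the other tumours lay lower.

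Col7a1 forms the anchoring fibrils below the basement membrane of stratified epithelia. It stood at 4.87, 5.16 and 4.74 in control HG-PIN, at 4.44, 4.41 and 5.16 in the T-3Mb-Erg HG-PIN arrays and at 4.33, 4.88 and 4.80 in tumours, so that its T-3Mb-Erg HG-PIN and tumour means were both 4.67. Col26a1 stood at 5.10, 5.01 and 4.83 in control HG-PIN, at 4.96, 5.02 and 4.83 in the T-3Mb-Erg HG-PIN arrays and at 4.57, 5.52 and 4.82 in tumours. Both genes thus varied more among the tumours or HG-PIN of a group than between group means.

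Negative differences were small beside those of type I and III collagen. Col10a1, a network-forming collagen of growth-plate cartilage, stood at 4.07, 4.21 and 4.04 in control HG-PIN, at 4.77, 3.95 and 4.33 in the T-3Mb-Erg HG-PIN arrays and at 3.61, 3.79 and 3.76 in tumours, all group means below the gauge. It was lower in the tumour of each of the 3 mice, with a mean log2 difference of -0.63 ± 0.22 (SE), or 1.55-fold lower (adjusted p = 0.454). Col6a4 stood at 3.28, 3.31 and 3.42 in control HG-PIN, at 4.0, 3.36 and 3.70 in the T-3Mb-Erg HG-PIN arrays and at 2.90, 4.22 and 2.63 in tumours (-0.44 ± 0.36, adjusted p = 0.923). Its tumour replicate 2 was the highest of all arrays and the other tumours were the lowest. Col20a1 stood at 4.48, 4.95 and 4.93 in control HG-PIN, at 4.13, 4.94 and 4.95 in the T-3Mb-Erg HG-PIN arrays and at 4.03, 4.63 and 4.43 in tumours (-0.31 ± 0.29, adjusted p = 0.948). Col18a1, whose C-terminal fragment is endostatin and which lies in epithelial and vascular basement membranes, stood at 4.07, 4.27 and 4.16 in control HG-PIN, at 4.36, 4.25 and 4.29 in the T-3Mb-Erg HG-PIN arrays and at 4.21, 3.77 and 4.12 in tumours. Tumours lay below T-3Mb-Erg HG-PIN without overlap, by a log2 difference of -0.27 ± 0.19 (adjusted p = 0.89). The rest, Col8a1, Col8a2 and Col15a1, differed by between -0.08 and 0.35.

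Within mice, the tumour minus HG-PIN difference of the genes with the larger mean differences varied between animals, while its median over all 39 members was 0.04, 0.12 and -0.01 in the mice of replicates 1, 2 and 3. For Col1a2 it was 2.66, -1.21 and 5.55 in the same order, and for Col3a1 it was 2.29, -0.50 and 2.86. Col12a1 gave 1.34, -1.13 and 3.93, and Col6a1 gave 0.93, -0.48 and 2.51. In the mouse of replicate 2 these 4 genes were thus lower in the tumour than in its HG-PIN, whose array carried the highest HG-PIN level of each. Col1a1 was positive in all 3 mice at 1.92, 0.20 and 2.92, as was Col5a1 at 0.06, 0.49 and 1.92. Of the 10 fibrillar members tested, 9, 7 and 5 were positive in the 3 mice, with medians of 0.41, 0.25 and 0.22. In the mouse of replicate 3, whose largest differences exceeded those of the other mice, 5 fibrillar members were therefore lower than in its HG-PIN. The 95th percentile of log2 intensity was 5.782 in HG-PIN and 6.255 in the tumour of that mouse. In the mouse of replicate 2 it was 5.835 and 5.635, and in that of replicate 1 it was 6.159 and 6.002. The part of array range in these differences was not tested. Tumour replicate 3 was the highest of the 9 arrays for 13 of the 39 members tested, T-3Mb-Erg tumour replicate 2 and control HG-PIN replicate 2 for 8 each, and T-3Mb-Erg tumour replicate 1 for 0. The same count was not made over all genes tested.

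**Figure D4:**
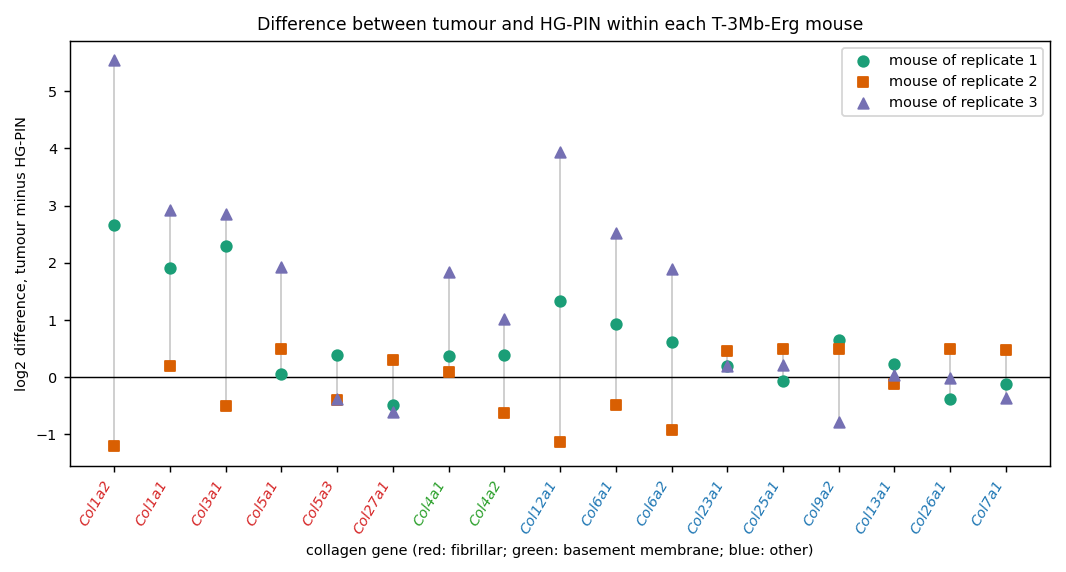
Log2 difference of tumour minus HG-PIN within each of the 3 T-3Mb-Erg mice for the 17 collagen genes above the gauge, coloured on the axis by class and joined by a grey line for each gene. The mouse of replicate 3 reaches 5.55 for Col1a2 and 3.93 for Col12a1, while the mouse of replicate 2 lies below 0 for both, at -1.21 and -1.13.

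The HG-PIN groups were compared to ask what the T-3Mb-Erg allele goes with in HG-PIN, in separate mice. All T-3Mb-Erg HG-PIN arrays came from mice that also bore the adenocarcinomas, so they do not show a state before invasion. The 4 members with the largest positive values were also the 4 largest of the first comparison: Col1a2 at 1.82 ± 0.92, Col3a1 at 0.91 ± 0.52, Col12a1 at 0.86 ± 0.68 and Col1a1 at 0.78 ± 0.49 (log2 difference ± SE), each at an adjusted p of 0.998. The dimmer probe set of Col1a2 gave 0.45 between the HG-PIN groups. None of the 39 was called, as was the case over all genes, with 0% called higher and 0% lower by limma. At an unadjusted p under 0.05 the collagen counts were 0 higher and 0 lower, beside 1.83% and 2.27% of all genes. All T-3Mb-Erg HG-PIN arrays lay above all control arrays for Col1a1, Col3a1 and Col12a1, 3 of 39 beside 4.86% of all genes, and below them for Col4a3, 1 of 39 beside 5.25%. Positive differences were found in 9 of 10 fibrillar members (median 0.15), 4 of 6 of basement membrane (0.09) and 12 of 23 others (0.004), beside 49.5% of all genes and a median of -0.004. Markers of other cell types were positive in the same comparison, with 0 called: smooth muscle in 11 of 11 (median 0.75, 4 with groups apart), macrophage in 8 of 9 (0.24), luminal epithelium in 12 of 14 (0.26), basal epithelium in 8 of 10 (0.31), endothelium in 7 of 10 (0.32) and fibroblasts in 8 of 12 (0.16). The part of these cells in the collagen values was not tested. For a gene of median precision the 95% interval reached 0.59 to either side, so differences of the size seen for most members were not detectable with 3 arrays a group. The largest negative values, Col9a2 at -0.63 ± 0.38 and Col25a1 at -0.51 ± 0.25, belonged to genes with overlapping groups.

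Tumours against control HG-PIN differ in both lesion and genotype, which cannot be told apart there. This comparison shares its tumour arrays with the first and its control arrays with the second, so its values are given side by side and are no independent evidence. Col1a2 stood 17.8-fold higher in tumours (log2 4.15 ± 0.92 SE, adjusted p = 0.105), Col3a1 5.5-fold (2.46 ± 0.52, adjusted p = 0.0879), Col1a1 5.48-fold (2.46 ± 0.49, adjusted p = 0.0773) and Col12a1 4.73-fold (2.24 ± 0.68, adjusted p = 0.256). The control means of Col1a2, Col3a1 and Col12a1 lay below the gauge, where background limits what a fold can show. The dimmer probe set of Col1a2 gave a log2 difference of only 1.33 here. That of Col5a1 gave 0.09 against 1.05 for the probe set used, whereas the other probe set of Col6a1 gave 2.56 against 1.21. Again 0 of 39 members were called, beside 0.108% of all genes called higher and 0.0721% lower. With p under 0.05 before adjustment, 7 members were higher (the 6 above and Col12a1) beside 4.74% of all genes, and 0 were lower beside 4.59%. The same 7 had all tumour arrays above all control arrays, beside 6.2% of all genes, and Col10a1 alone had all below, beside 7.51%. The fibrillar median was 0.59, with 8 of 10 positive, against 0.13 for basement membrane, -0.02 for the others and -0.03 for all genes. Without T-3Mb-Erg tumour replicate 2 there were 4 calls: Col1a1 (log2 2.92, adjusted p = 0.00829), Col1a2 (4.92, adjusted p = 0.0169), Col3a1 (3.07, adjusted p = 0.00238) and Col12a1 (2.89, adjusted p = 0.0401). All genes called in that fit numbered 216 higher and 45 lower, beside 18 and 12 in the main fit. Without any other single array 0 collagens were called.

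The genes that modify, cut and crosslink collagen chains were described from a list of 31, of which 27 were on the array and 26 tested. Lox, the lysyl oxidase that crosslinks collagen outside the cell, rose in tumours and was the only one of the 26 called. Of all genes tested, 0.0661% were called higher over T-3Mb-Erg HG-PIN and 0.108% over control HG-PIN. Lox stood at 2.32, 3.14 and 3.28 in control HG-PIN, at 3.47, 4.35 and 2.83 in the T-3Mb-Erg HG-PIN arrays and at 7.49, 5.45 and 7.91 in tumours. The rise was 3.40 ± 0.58 (SE) over T-3Mb-Erg HG-PIN, 10.5-fold (adjusted p = 0.0384), and 4.03 ± 0.57 over control HG-PIN (adjusted p = 0.0253). The means of Lox in control HG-PIN (2.91) and T-3Mb-Erg HG-PIN (3.55) lay below the gauge, where background limits what a fold can show. All tumours lay above all HG-PIN arrays, and replicate 2 was again the lowest tumour. The call over T-3Mb-Erg HG-PIN was lost when the mouse entered as a fixed replicate block (adjusted p = 0.0753), and without any of control HG-PIN replicate 3 (0.0653), each T-3Mb-Erg HG-PIN array (0.235, 0.169 and 0.0682 for replicates 1, 2 and 3) and tumour replicates 1 (0.242) and 3 (0.0526), all as adjusted p. It was also lost with only the 2 groups compared (0.0691), with arrays scaled to the same median (0.073), with log2 of value plus 16 (0.0665) and with no mean trend (0.0504), so that 11 of 22 alternatives ended it. The call over control HG-PIN was lost without control replicates 1 (0.158) and 3 (0.113), T-3Mb-Erg HG-PIN replicate 3 (0.051) and tumour replicates 1 (0.105) and 3 (0.104), with only the groups compared (0.0693), with scaled arrays (0.0534) and with the added 16 (0.0645), in 8 of 21 alternatives.

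Plod2, which hydroxylates lysines for stable crosslinks, and Serpinh1, a chaperone of procollagen, were singled out after their values were seen. Plod2 had a tumour difference from T-3Mb-Erg HG-PIN of 2.53 ± 0.60 (adjusted p = 0.142) and Serpinh1 one of 0.94 ± 0.30 (adjusted p = 0.362). Plod2 passed the signal filter of 3.25 only through tumours (mean 5.64), with means of 2.81 in control HG-PIN and 3.11 in T-3Mb-Erg HG-PIN. It is part of the counts that follow. Of the 26, 19 were positive with a median of 0.32, and 7 were higher at an unadjusted p under 0.05, beside 48.9% of all genes positive and 3.67% higher.

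Proteins that sit on or beside collagen fibres were covered by 17 tested genes, of which 0 were called and 10 were positive in tumours against T-3Mb-Erg HG-PIN (median 0.22). Tgfbi, a collagen-binding secreted protein, had a difference of 2.76 ± 0.63 (adjusted p = 0.122), and the proteoglycan Vcan had 2.35 ± 0.63 (adjusted p = 0.231). Among 15 partners of type IV collagen in the basement membrane, 11 were positive and 0 called, with a median of 0.44. Nid1, which links laminin to type IV collagen, had 1.39 ± 0.40 (adjusted p = 0.291), and the laminin chain Lamb2 had 1.5 ± 0.44 (adjusted p = 0.299).

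Collagen receptors numbered 9 tested, of which 5 were positive and 0 called. Ddr2, a receptor kinase for fibrillar collagen of mesenchymal cells, had 1.34 ± 0.43 (adjusted p = 0.371), and Adgrg1, which binds type III collagen, had -0.69 ± 0.27 (adjusted p = 0.527). Ddr2 passed the signal filter of 3.25 only through tumours (mean 4.37), with means of 2.97 in control HG-PIN and 3.03 in T-3Mb-Erg HG-PIN. A list on collagen breakdown had 7 tested genes: the proteases Mmp2, Mmp9, Mmp14 and Ctsk and the protease inhibitors Timp1, Timp2 and Timp3. As the inhibitors oppose breakdown, a count over the list gives it no direction. Of the 7, 6 were positive and 0 called, with a median of 0.92, beside 48.9% of all genes positive. The protease inhibitor Timp1 had 1.35 ± 0.41 (adjusted p = 0.316) and the gelatinase Mmp2 had 2.20 ± 0.70 (adjusted p = 0.365). Against control HG-PIN, all 7 were positive, beside 46.3% of all genes, and Timp1 had 2.19 (adjusted p = 0.0566).

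Markers of stromal cell types were set beside the collagens on the same arrays, with collagen genes left out of the fibroblast list. In tumours against T-3Mb-Erg HG-PIN, 12 of 12 tested fibroblast markers were positive (median 0.41) and 0 were called, beside 48.9% of all genes positive. Pdgfrb, Pi16, Fbln1, Clec3b and Scara5, each below the gauge in every group mean, differed by only 0.055 to 0.231. Serping1 had 2.91 ± 0.56 (adjusted p = 0.0561) and Pdgfra 1.95 ± 0.48 (adjusted p = 0.168). Against control HG-PIN, 10 of 12 were positive, beside 46.3% of all genes. Serping1 rose by 3.74 there (adjusted p = 0.0288), beside 0.108% of all genes called higher. The mean level of the 14 on the array lay between 3.92 and 4.14 over control HG-PIN arrays, 4.02 and 4.33 over T-3Mb-Erg HG-PIN and 4.63 and 5.18 over tumours. Of these 14, 7 had a mean above the gauge in at least 1 group. Of the defining markers, Fap and Dpt were below the gauge in every group mean, and Thy1 was above it in T-3Mb-Erg HG-PIN and tumours. Over the 12 tested, T-3Mb-Erg HG-PIN replicate 2 had the highest mean of the HG-PIN arrays (4.55) and tumour replicate 2 the lowest of the tumours (4.88), as was the case for the fibrillar collagens (5.16 and 5.22). Endothelial markers (4.185 and 4.243), collagen processing genes (4.34 and 4.41) and basement membrane partners (4.41 and 4.45) had it too, though not smooth muscle or macrophage markers. This array order is thus not particular to fibroblast markers. The part of fibroblast content in the collagen differences was not tested.

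**Figure D5:**
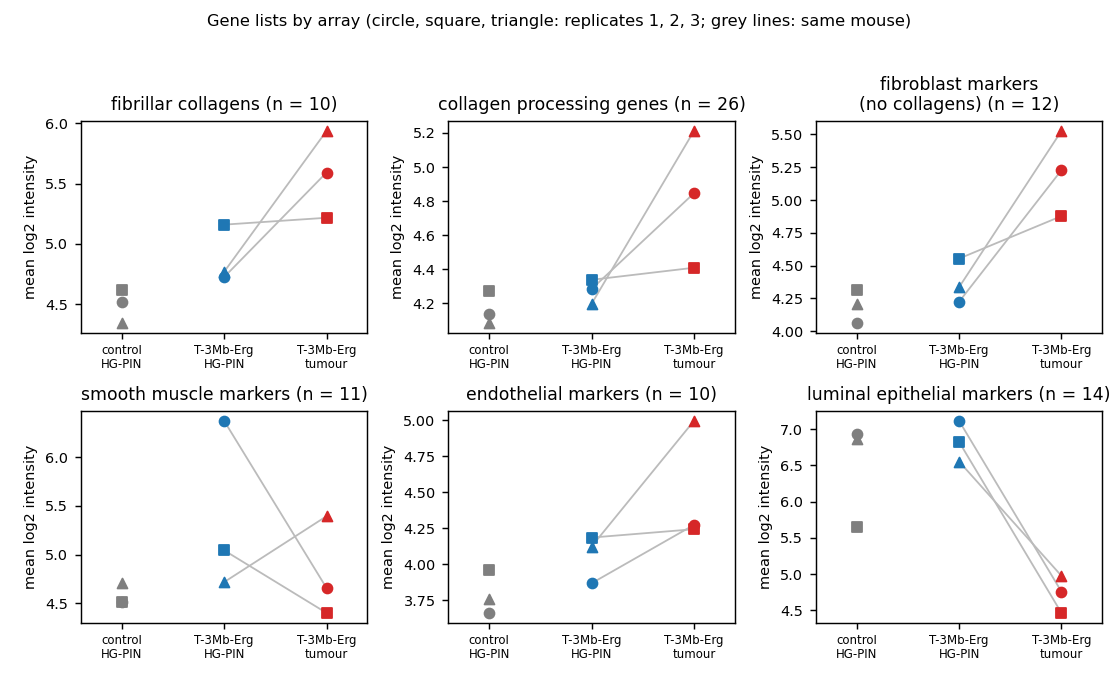
Mean log2 intensity of the tested genes of 6 lists on each array, with a circle, square and triangle for replicates 1, 2 and 3 and grey lines between lesions of the same mouse. Fibrillar collagens, collagen processing genes, fibroblast markers and endothelial markers stand higher in tumours, with tumour replicate 3 on top. Luminal epithelial markers stand lower in tumours (4.46 to 4.98) than in T-3Mb-Erg HG-PIN (6.55 to 7.11).

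Smooth muscle markers did not follow this order: 3 of 11 were positive in tumours against T-3Mb-Erg HG-PIN (median -0.54, 0 called). Their mean level lay between 4.51 and 4.71 in control HG-PIN, 4.72 and 6.37 in the T-3Mb-Erg HG-PIN arrays and 4.4 and 5.39 in tumours, highest in T-3Mb-Erg HG-PIN replicate 1, where Acta2 stood at 8.33. Endothelial markers were positive in 8 of 10 tested (median 0.26, 0 called), with mean levels of 3.5 to 3.85, 3.67 to 3.93 and 3.98 to 4.65. Pecam1 stood at 6.19 on tumour replicate 3. Macrophage markers were positive in 5 of 9 (median 0.05, 0 called; 4.11 to 4.27, 4.31 to 4.57 and 4.14 to 4.88), fat cell markers in 2 of 4 (3.65 to 4.09, 3.66 to 4.49 and 3.98 to 4.42) and Schwann cell markers in 1 of 3, with 0 above the gauge.

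Between tumours and T-3Mb-Erg HG-PIN the median difference of the epithelial markers had the opposite sign to that of the fibrillar collagens, whereas between the HG-PIN groups both were positive. All 14 luminal markers were negative in tumours against T-3Mb-Erg HG-PIN, with a median of -2.58, and 7 fell with an adjusted p under 0.05, among them the keratin Krt8 (-2.88, adjusted p = 0.0154) and the adhesion proteins Cdh1 (-2.88, adjusted p = 0.0424) and Epcam (-2.55, adjusted p = 0.043). Their mean level lay between 5.65 and 6.93 in control HG-PIN, 6.55 and 7.11 in the T-3Mb-Erg HG-PIN arrays and 4.46 and 4.98 in tumours. Of 10 basal markers 8 were negative, and Krt15 fell (-3.0, adjusted p = 0.0157). Beside the calls of both lists, 0.216% of all genes tested were called lower in this comparison. Mean basal levels were 4.87 to 5.08, 5.38 to 5.53 and 4.64 to 4.71. In tumour replicate 2, where Col1a2, Col3a1, Col12a1 and Col6a1 were lower than in HG-PIN of the same mouse, the luminal level (4.46) was the lowest of all arrays. The part of epithelial content in the collagen values was not tested.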

How the data were processed

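Lesions were laser-captured from fixed prostate, and their RNA was amplified with a NuGEN system and hybridised to Affymetrix Mouse Gene 2.0 ST arrays with 1 label, per the labels' protocols. The deposited values are intensities on a linear scale for 41345 probe sets; how the authors corrected background, summarised probes and normalized is not given in the sources used here, and a difference may depend in part on unknown scaling. RNA from fixed tissue is fragmented, which can lower signal and widen the spread between arrays. Arrays have no depth, and their number, 3 a group, limits the precision.

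Names of probe sets came from the platform annotation, updated by Entrez identifier with a RefSeq table (GRCm38.p6): 23521 had 1 symbol (23328 matched), 1814 several and 16010 none. The 44 collagens had 47 probe sets with 1 symbol, and 1 with several symbols was left out. Each gene took its brightest probe set by mean over 9 arrays. Values were log2-transformed with no pseudocount, and the lowest 25% by mean were removed. limma 3.58.1 in R 4.3.3 fitted group means over all 9 arrays, with the mouse as a random block (consensus correlation -0.01) and trended empirical Bayes variances; adjusted p-values (Benjamini-Hochberg) are over 16635 genes in each of 3 comparisons. T-3Mb-Erg replicate numbers mark the same mice, per the labels; deviations of same-mouse lesions from their group means correlated at 0.17, 0.10 and -0.30. Fits were tested on simulated data. A further part of the genotype, shared by all groups, is not reported here.

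The members, lists, tests and alternatives were chosen with earlier results of these data known. Values on every array are given for members above the gauge in at least 1 group and for the 5 largest positive and 5 largest negative tumour differences from T-3Mb-Erg HG-PIN; of other lists, called members (up to 4) or else the 2 with the smallest p. Alternatives were other blocks, samples, filters, scalings, pseudocount (16), probe set rule, variance trend, array weights, array range and leaving out arrays.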

Additional observations from a re-analysis of the deposited data

How the results depend on the processing

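The main fit called 0 collagens in each of the 3 comparisons, so there was no called collagen value whose sign could change. Between the HG-PIN groups 0 collagens were called under all 21 alternatives. In tumours against T-3Mb-Erg HG-PIN the calls went from 0 to 2 with array weights (Col1a1, Col3a1), to 1 when the array with the narrowest range was left out of every group (Col3a1) and between 0 and 1 when single arrays were left out; in tumours against control HG-PIN they went from 0 to 1 with quantile normalization, 5 with array weights, 3 with array range as a covariate, 3 without those narrowest-range arrays and 0 to 4 when single arrays were left out. All-gene calls moved as well. In tumours against T-3Mb-Erg HG-PIN they were 226 higher and 179 lower with array weights, beside 11 and 36 in the main fit. Without the narrowest-range arrays they were 82 and 97. Against control HG-PIN, all-gene calls were 18 higher and 12 lower in the main fit and 36 and 29 with quantile normalization. They were 515 and 423 with array weights, 80 and 91 with array range and 143 and 117 without the narrowest-range arrays. These settings thus changed the whole table. Collagens higher at an unadjusted p under 0.05 between the HG-PIN groups went from 0 to 4 with only the 6 arrays compared, 3 with array weights and 3 without the narrowest-range arrays, and from 0 to 2 over single arrays left out; in tumours against T-3Mb-Erg HG-PIN that count lay between 2 and 8 over single arrays left out. The median over collagens in that comparison was -0.07 with array weights and between -0.06 and 0.19 over single arrays left out, so its sign is not settled. The fibrillar median there was 0.24 with no signal filter, 0.82 with the lowest 50% removed and 0.30 with log2 of value plus 16, and against control HG-PIN it was 0.25, 0.93 and 0.31. With mouse as a fixed term (a replicate block), 5 of the 6 higher collagens kept an unadjusted p under 0.05 (not Col4a1), 0 collagens were called, and all-gene calls were 6 higher and 9 lower; the replicate numbers changed no collagen call. In the fit without the narrowest-range arrays no block correlation could be estimated, and that fit had no block. Leaving out an array leaves 2 in its group, with the spread pooled over groups. Low signal and 3 arrays a group limit all of this: 27 of 44 members had no group mean above the gauge.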

Other observations

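The collagen genes of control HG-PIN replicate 2 were the highest of the 9 arrays for 8 of the 39 members tested, 6 of them among the 23 that are neither fibrillar nor of basement membrane, and that array also had the lowest 95th percentile of log2 intensity, at 5.61. T-3Mb-Erg tumour replicate 2, next lowest at 5.63, was likewise highest for 8. The same counts were not made over all genes tested, so they cannot be called particular to collagens. Of the members above the gauge, those with their own highest level on control HG-PIN replicate 2 were Col9a2 (6.80), Col27a1 (5.67), Col25a1 (5.36) and Col7a1 (5.16). The part of array range in these levels was not tested.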
